A study of Mus musculus with 18 samples.

Results

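Trim10, Trim58, Ypel4, Tmcc2, Phospho1, Car2, Rnf11 and Bpgm are 8 of the 19326 genes in a spleen expression table. They were chosen by their measured FPKM, lower on a high fat diet than in control mice, so any comparison of theirs that uses those 2 groups is a description and carries no test. The libraries came from spleens of ICR mice aged 10 weeks, with 3 libraries in each of 6 groups. The groups were control, AOS (10 mg/kg), high fat diet (HFD), HFD with AOS at the same dose (HFD+AOS), HFD with FMT labelled AOS 10 mg/kg (HFD+AOS-FMT) and HFD with FMT labelled control (HFD+control-FMT). The abbreviations AOS and FMT are those of the labels, which name no allele and say nothing further of the transplants. The series set out to examine what FMT does to a spleen affected by the diet. Nothing in the labels ties a library to an animal of its own, so p-values measure only the spread between these libraries. Libraries are named by group and label number, and levels are in FPKM, fragments scaled to transcript length and to the mapped total.

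The mouse spleen makes red blood cells alongside the bone marrow. Erythroblasts there fill with haemoglobin, build the protein skeleton under the membrane, clear their organelles through ubiquitin ligases and autophagy, and expel the nucleus. Genes of these last steps are switched on by GATA1 and KLF1, factors that bind GATA and CACCC sequences. In whole spleen, fewer erythroid cells and less RNA per erythroid cell cannot be told apart.

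Haemoglobin genes took 10.8% to 34.3% of all FPKM in a library, so haemoglobin RNA varied widely within and between groups. Hbb-bs, which is among these genes, ran from 63.4 to 8414 FPKM within AOS. Summed membrane and skeleton genes of red cells ran from 1088 to 1563 FPKM there. The part of Hbb-bs in the share was not tested. One HFD library stood apart from the other two of its group: the haemoglobin share was 27.4% in HFD 1 and 11% and 10.8% in HFD 2 and HFD 3. The control libraries also differed among themselves: summed neutrophil markers (9 genes) were 15230 FPKM in control 1, 4152 FPKM in control 2 and 816 FPKM in control 3, and at most 1438 FPKM in any library of another group. Summed megakaryocyte and platelet markers (8 genes) were 2020.4, 1061 and 808 FPKM in the same 3 libraries, and at most 1091 FPKM elsewhere. Summed T cell markers (8 genes) were 346.2 to 371.1 FPKM in HFD and 152.4 to 265.4 FPKM in control, which did not overlap. Summed exocrine pancreas markers (7 genes) ranged from 6.97 to 13649 FPKM over all libraries, with the highest in HFD+AOS, and the part of these marker lists in the results was not tested.

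Promoter sequence was at hand for 6 of the 8 genes, in 8 windows of the 250 bases before a RefSeq transcription start (GRCm38.p6). A GATA sequence was held by 3 of the 8 windows, each of a different gene, and by 26.5% of all 32851 mouse windows of this length. The sequence was NGATAA or NGATAG on either strand, where N stood for A or T. The windows below are shown because they carry those matches, in capitals, on the strand of the gene, beside a second Tmcc2 window with none. They lie at chr17:36869324-36869573 (Trim10, plus strand), chr11:58640215-58640464 (Trim58, plus strand), chr1:132367949-132368198 (Tmcc2, minus strand, before a start inside the gene) and chr1:132391387-132391636 (Tmcc2, minus strand, before the most upstream start).
Trim10: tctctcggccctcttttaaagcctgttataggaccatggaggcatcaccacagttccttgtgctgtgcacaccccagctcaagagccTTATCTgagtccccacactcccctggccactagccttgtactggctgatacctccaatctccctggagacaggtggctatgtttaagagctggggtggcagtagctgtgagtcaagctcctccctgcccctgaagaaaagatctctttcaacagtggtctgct
Trim58: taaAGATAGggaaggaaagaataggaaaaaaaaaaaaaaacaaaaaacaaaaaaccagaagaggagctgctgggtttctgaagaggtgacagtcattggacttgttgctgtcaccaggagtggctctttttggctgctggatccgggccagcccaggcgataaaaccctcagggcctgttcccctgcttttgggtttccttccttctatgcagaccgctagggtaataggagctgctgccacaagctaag
Tmcc2, inner start: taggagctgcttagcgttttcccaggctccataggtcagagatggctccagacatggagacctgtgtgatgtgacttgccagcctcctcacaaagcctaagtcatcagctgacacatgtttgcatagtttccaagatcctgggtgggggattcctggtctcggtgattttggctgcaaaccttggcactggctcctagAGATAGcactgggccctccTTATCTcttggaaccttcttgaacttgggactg
Tmcc2, upstream start: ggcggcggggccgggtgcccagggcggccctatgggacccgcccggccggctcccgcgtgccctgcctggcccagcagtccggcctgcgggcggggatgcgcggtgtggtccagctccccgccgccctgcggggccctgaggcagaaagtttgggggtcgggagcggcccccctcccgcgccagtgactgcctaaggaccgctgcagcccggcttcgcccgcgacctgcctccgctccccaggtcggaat
The Trim10 match lies 163 to 158 bases before the start and the Trim58 match 247 to 242 bases before it. The inner Tmcc2 window has matches at 52 to 47 and at 33 to 28 bases before the start. A further Tmcc2 window, not shown (chr1:132390319-132390568), held no GATA match. It was the only Tmcc2 window for which the bases after the start were found in a GENCODE transcript. The CACCC sequence CCNCNCCC was found in 5 windows of 4 genes (Tmcc2, Ypel4, Bpgm and Phospho1), against 45.9% of all windows. A match of letters is a description and not a binding site.

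Trim10 (17:36869574-36877833, plus strand, GENCODE vM21 on GRCm38, as for all positions here) encodes a RING finger protein needed for terminal erythroid differentiation. Its level was 138, 97.4 and 87.4 FPKM in control, 65.2, 80.2 and 50.6 FPKM in AOS and 63.4, 23.9 and 31.2 FPKM in HFD. It was 55.4, 62.2 and 42.2 FPKM in HFD+AOS, 58.8, 67.5 and 79.3 FPKM in HFD+AOS-FMT and 39.0, 37.3 and 49.0 FPKM in HFD+control-FMT. All 3 control libraries lay above the other 15, and HFD 2 was the lowest library. In the order of group means, control stood apart from HFD+AOS-FMT, and no other neighbouring pair was without overlap.

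Trim58 (11:58640465-58652404, plus strand) encodes a ubiquitin ligase that promotes the loss of the nucleus by acting on dynein. It was measured at 7.64, 6.67 and 7.63 FPKM in control, 4.84, 5.46 and 4.88 FPKM in AOS and 5.80, 2.38 and 3.05 FPKM in HFD. The diet groups with a further treatment had 6.39, 6.18 and 3.52 FPKM (HFD+AOS), 6.95, 7.20 and 6.99 FPKM (HFD+AOS-FMT) and 3.34, 3.16 and 5.46 FPKM (HFD+control-FMT). The HFD+AOS-FMT libraries lay within the control range, and the HFD+control-FMT libraries lay below both.

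Rnf11 (4:109451098-109484728, minus strand) encodes a broadly expressed RING finger protein that works with the A20 ubiquitin-editing enzyme. Its level was 46.9, 43.1 and 49.1 FPKM in control, 32.0, 37.9 and 36.6 FPKM in AOS and 34.0, 29.3 and 32.4 FPKM in HFD. It was 34.0, 36.3 and 30.8 FPKM in HFD+AOS, 47.4, 49.2 and 45.3 FPKM in HFD+AOS-FMT and 34.1, 38.7 and 37.2 FPKM in HFD+control-FMT. The 6 control and HFD+AOS-FMT libraries were all above the other 12. The highest library was 1.68 times the lowest, the narrowest range of the 8 genes, and HFD 1 was low for Rnf11 although its haemoglobin share was high.

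Car2 (3:14886273-14900770, plus strand) encodes carbonic anhydrase II, which lets red cells carry carbon dioxide as bicarbonate. It was the most abundant of the 8 at 1673, 1239 and 1005 FPKM in control, 758, 999.96 and 633 FPKM in AOS and 971, 482 and 562 FPKM in HFD. It measured 895, 746 and 488 FPKM in HFD+AOS, 1221, 1166 and 1031 FPKM in HFD+AOS-FMT and 572, 539 and 764 FPKM in HFD+control-FMT. Each control and HFD+AOS-FMT library was above every other library. Car2 was the one gene whose mean was lowest in HFD+control-FMT (625 ± 122 FPKM, SD, n = 3) and not in HFD (672 ± 262 FPKM, SD, n = 3).

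Bpgm (6:34476207-34505613, plus strand) encodes the enzyme that makes 2,3-bisphosphoglycerate, which lowers the oxygen affinity of haemoglobin. Its level was 179, 134 and 111 FPKM in control, 116, 134 and 92.6 FPKM in AOS and 138, 63.7 and 61.2 FPKM in HFD. It was 139, 133 and 73.1 FPKM in HFD+AOS, 103, 101 and 130.3 FPKM in HFD+AOS-FMT and 73.4, 98.3 and 92.0 FPKM in HFD+control-FMT. Control and HFD overlapped because HFD 1 lay between the 2 highest control libraries. The means of HFD+AOS, AOS and HFD+AOS-FMT were 114.9, 114 and 111.4 FPKM with overlapping ranges.

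Phospho1 (11:95824499-95832140, plus strand) encodes a phosphatase of phosphocholine and phosphoethanolamine best known from bone mineralization. Its exons overlap those of Abi3 on the minus strand and Zfp652 on the plus strand. Where exons overlap, strand could separate its reads from those of Abi3 but not of Zfp652. Whether counting used strand is not given in the sources used here, so reads of the 3 genes cannot be told apart there. Phospho1 was the least abundant at 9.09, 5.23 and 3.84 FPKM in control, 2.78, 3.72 and 1.64 FPKM in AOS and 2.97, 0.80 and 0.72 FPKM in HFD. It measured 3.72, 2.96 and 1.44 FPKM in HFD+AOS, 2.69, 3.43 and 2.76 FPKM in HFD+AOS-FMT and 1.5, 2.17 and 2.60 FPKM in HFD+control-FMT. Control was above each of the other 15 libraries, and the highest library was 12.6 times the lowest, the widest range of the 8.

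Ypel4 (2:84734058-84738655, plus strand) belongs to the yippee-like family of small zinc-binding proteins. It had 48.4, 34.6 and 28.8 FPKM in control, 24.3, 25.7 and 21.1 FPKM in AOS and 22.5, 9.60 and 12.4 FPKM in HFD. It had 32.8, 24.5 and 15.1 FPKM in HFD+AOS, 39.8, 37.0 and 30.6 FPKM in HFD+AOS-FMT and 15.2, 18.02 and 20.5 FPKM in HFD+control-FMT. HFD+AOS-FMT overlapped control, while HFD+control-FMT lay below both.

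Tmcc2 (1:132356315-132391281, minus strand) encodes a membrane protein with coiled coils, and its exons overlap the antisense gene Gm15849, whose reads cannot be told apart from its own without strand. Its level was 205, 161 and 138 FPKM in control, 101, 136 and 80.5 FPKM in AOS and 126, 42.9 and 55.6 FPKM in HFD. It was 114, 95.4 and 67.2 FPKM in HFD+AOS, 175, 165 and 139 FPKM in HFD+AOS-FMT and 71.0, 74.9 and 101 FPKM in HFD+control-FMT. The HFD+AOS-FMT libraries lay within the control range and above all 12 libraries of the other 4 groups.

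**Figure D1:**
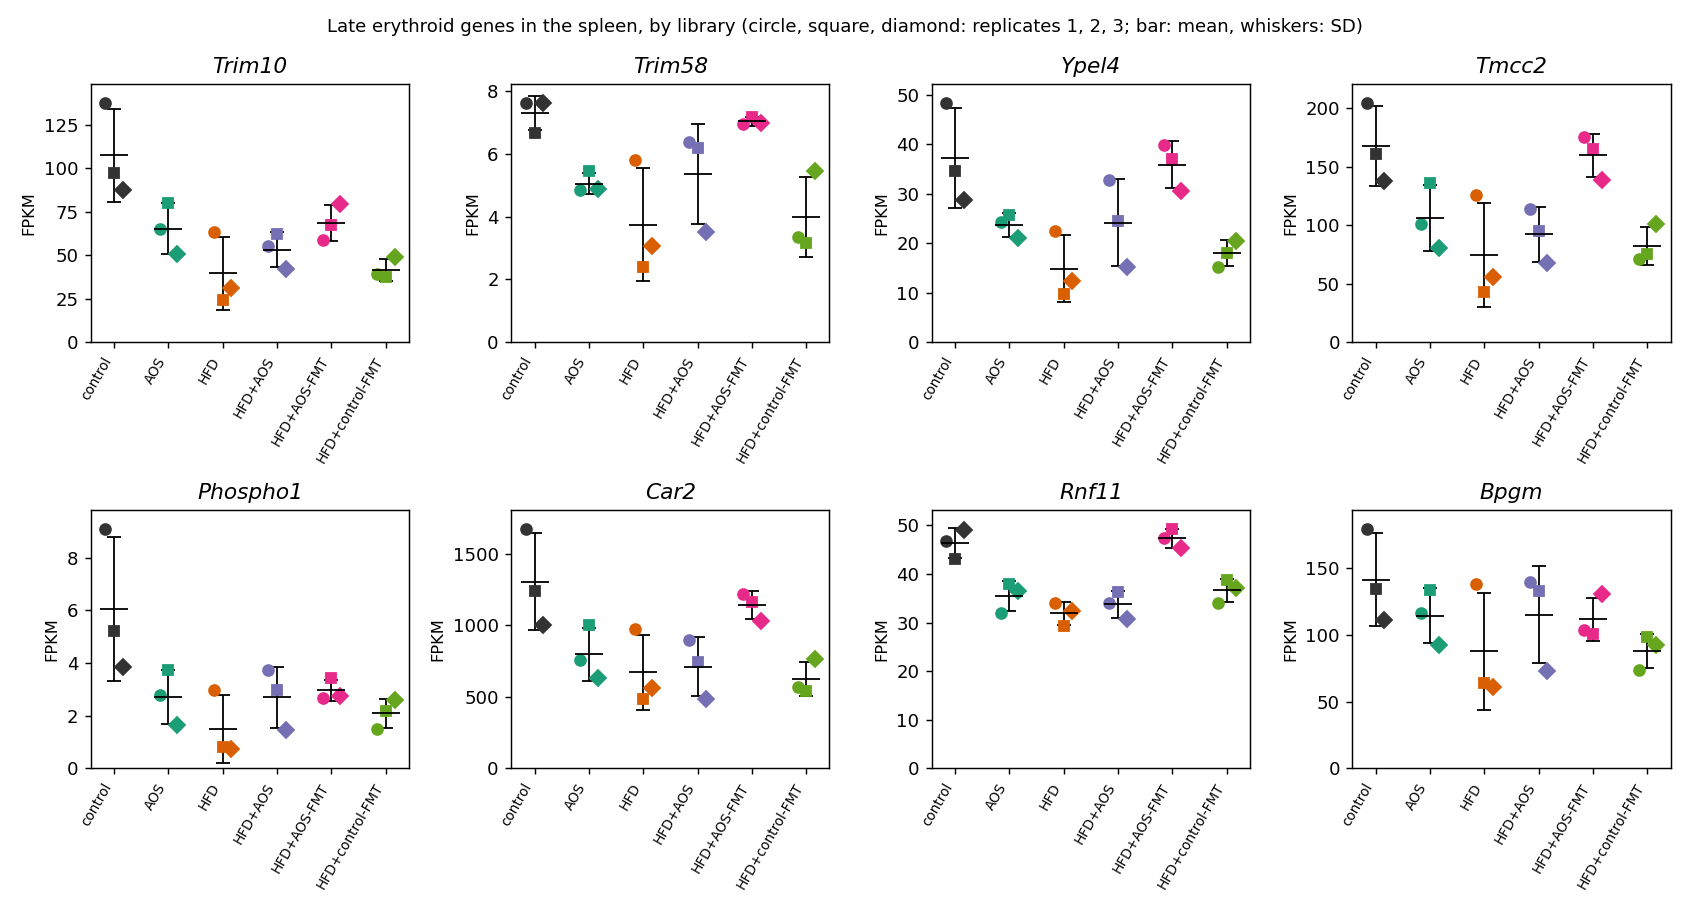
FPKM of each of the 8 genes (vertical axes, from 0) in each of 18 libraries, by group; points are libraries, bars are group means and whiskers are SD (n = 3). Trim58, Tmcc2, Car2 and Rnf11 each separate 6 libraries (control and HFD+AOS-FMT) from the other 12, and all genes but Rnf11 have HFD 1 well above the other HFD libraries.

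Differences between groups were computed as log2(FPKM + 1) in 1 fit to all 18 libraries, over the 12969 genes whose mean reached 1 FPKM in some group, a filter that all 8 passed. In HFD against control, the comparison that chose them, the log2 difference ran from -1.54 (Phospho1) to -0.53 (Rnf11) with a median of -1.14, and groups did not overlap for 7 of the 8, all but Bpgm (lower without overlap in 5.44% of all genes). The median of all genes was 0.10 in this comparison and moved by -0.10 when libraries were scaled by median ratios. Single libraries moved these values both ways without changing a sign. Trim10 (-1.52) was -1.91 without HFD 1, -1.23 without HFD 2 and -1.32 without control 1. Bpgm (-0.76) was -1.14, -0.58 and -0.58 without the same libraries, and Rnf11 (-0.53) was -0.57, -0.47 and -0.52. Trim58 (-0.87) was -0.51 with a pseudocount of 5.

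Most red cell genes outside the 8 were also lower in these libraries, which is given as a description, since the same 6 libraries chose the 8 and the lists were drawn up with earlier results known. Groups were lower without overlap for 12 of 16 genes of the red cell membrane and skeleton (median log2 difference -1.10), 5 of 12 of haem synthesis (-0.88), 5 of 10 erythroid transcription factors with Epor (-0.91) and 11 of 19 of organelle clearance and ubiquitin (-0.58). Early erythroid progenitor genes had 0 of 5 and a median of -0.02. Gata2, a factor of early progenitors, had 3.44 ± 0.132 FPKM in HFD and 3.44 ± 0.169 FPKM in control (SD, n = 3). Myb, of the same list, was lower at 14.1 ± 1.69 FPKM in HFD against 17.4 ± 2.28 FPKM in control (SD, n = 3), with overlap. Lower levels were not confined to red cell lists. Summed cell division genes were 287.6 to 461.4 FPKM in HFD and 427.9 to 788.8 FPKM in control. Summed B cell markers went the other way, at 2572 to 3185 FPKM in HFD and 1579 to 2742 FPKM in control. Both overlapped, and their part was not tested.

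AOS without the diet also had lower levels than control. The median log2 difference of the 8 was -0.64, and 7 did not overlap, Bpgm being the exception (lower without overlap in 5.1% of all genes). The 3 treated diet groups differed from control to unequal extents. In HFD+control-FMT against control all 8 were lower without overlap (8.29% of all genes) with a median of -1.01, and in HFD+AOS 6 were (4.78% of all genes) with a median of -0.75. In HFD+AOS-FMT 2 were (5.79% of all genes), Trim10 at -0.63 and Phospho1 at -0.77, and the median of the 8 was -0.11. These comparisons share the control libraries with each other and with the choice of the genes.

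Against HFD alone, HFD+AOS-FMT was higher without overlap for 5 of the 8, namely Trim58, Ypel4, Tmcc2, Car2 and Rnf11 (6.25% of all genes), with a median of 0.83. HFD+control-FMT was higher without overlap for 1, Rnf11 (4.57% of all genes), with a median of 0.19. HFD+AOS overlapped HFD for all 8 (16% of all genes did not overlap), with a median of 0.45. Among same-numbered libraries Trim58, Ypel4, Phospho1 and Bpgm were higher in HFD+AOS in 3 of 3 pairs. The share of all genes with 3 of 3 pairs alike was not computed, so this is a description.

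The differences between the 2 FMT groups use none of the libraries that chose the genes. Their intervals and p-values do, since the fit estimates spread from all 18 libraries. Ypel4 and Tmcc2 both had a log2 difference of 0.96 in HFD+AOS-FMT against HFD+control-FMT, Car2 had 0.88, Trim58 0.72 and Trim10 0.70. Smaller differences were found for Phospho1 (0.37), Rnf11 (0.36) and Bpgm (0.34). All 8 were higher without overlap between the groups, as were 7.8% of all genes, and the median of the 8 was 0.71 beside -0.05 for all genes. With a pseudocount of 5 the difference was 0.43 for Trim58 and 0.17 for Phospho1, the 2 genes of lowest level.

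None of the 8 was called in that comparison: limma's adjusted p ran from 0.249 (Rnf11) to 0.758 (Phospho1), and 0.00771% of all genes were called, 1 gene in all. An unadjusted p of 0.05 or less was reached by 6 of the 8 and by 10.5% of all genes. The 95% interval of the log2 difference was 0.36 to 1.56 for Ypel4, 0.30 to 1.46 for Car2, 0.18 to 0.54 for Rnf11 and -0.30 to 0.97 for Bpgm. The haemoglobin share was 21.5% to 26.4% in HFD+AOS-FMT and 15.4% to 18.8% in HFD+control-FMT, and its part in the differences was not tested.

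Most genes of the late red cell lists were also higher in HFD+AOS-FMT than in HFD+control-FMT, again with none called. Of the membrane and skeleton genes 15 of 16 were higher without overlap (median 0.77), among them Rhd, the Rh blood group protein, at 148 ± 14.2 against 85.6 ± 13.5 FPKM (SD, n = 3) and Aqp1, the water channel, at 183 ± 10.5 against 116 ± 26.9 FPKM (SD, n = 3). The haem synthesis list had 11 of 12 (median 0.60), erythroid transcription factors 7 of 10 (0.57) and organelle clearance genes 16 of 19 (0.33). Cell division genes had 5 of 12 (0.26), with a sum of 461.7 to 522.8 FPKM against 352.9 to 434.1 FPKM, and their part in the differences was not tested. Early progenitor genes had 0 of 5 and a median of -0.02, and T cell markers had a median of -0.16.

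**Figure D2:**
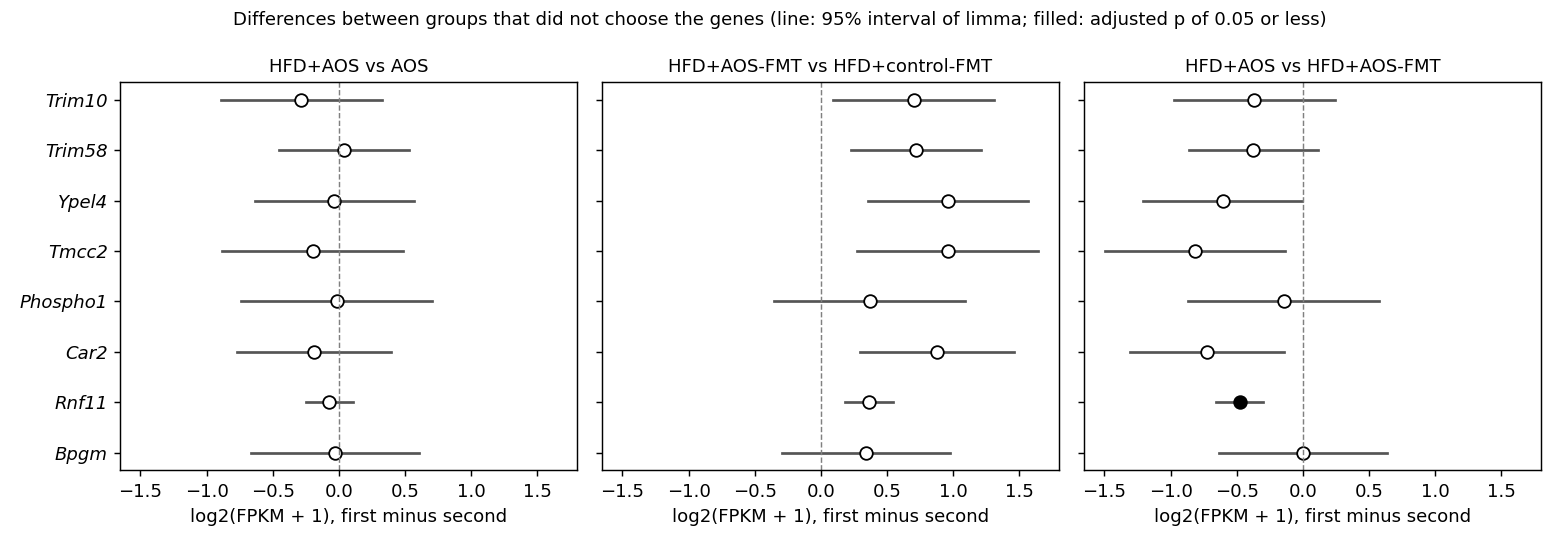
Log2 difference of each of the 8 genes in 3 tested comparisons (horizontal axes), as points with lines for the 95% interval from the fit to 18 libraries, filled where the adjusted p was 0.05 or less. For HFD+AOS-FMT against HFD+control-FMT all 8 points lie above 0, and the Rnf11 interval for HFD+AOS against HFD+AOS-FMT lies wholly below 0.

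Rnf11 was lower in HFD+AOS (33.7 ± 2.76 FPKM, SD, n = 3) than in HFD+AOS-FMT (47.3 ± 1.94 FPKM, SD, n = 3), and it was the 1 gene of the 8 called in a tested comparison. The log2 difference was -0.48 (SE 0.085, 95% interval -0.66 to -0.30, limma adjusted p = 0.0220), with 0.918% of all genes called. An unadjusted p of 0.05 or less was reached by 4 of the 8, Rnf11, Car2, Tmcc2 and Ypel4, and by 15.3% of all genes. Tmcc2 (-0.81), Car2 (-0.72) and Trim58 (-0.37) were also lower without overlap but had adjusted p of 0.232, 0.208 and 0.480 in limma. In all 4 of the 8 were lower without overlap, against 8.21% of all genes, and the median was -0.43. The Rnf11 call rested on every library of the 2 groups: the adjusted p was 0.0604, 0.121 and 0.0596 without HFD+AOS 1, 2 and 3, and 0.129, 0.0945 and 0.0579 without HFD+AOS-FMT 1, 2 and 3. The Rnf11 log2 difference moved less in these runs, from -0.53 without HFD+AOS 2 to -0.42 without HFD+AOS 3.

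In HFD+AOS against AOS, the diet comparison among mice given AOS, all 8 genes overlapped (11.3% of all genes did not) and none was called, as for all 12969 genes (0% called; 5.34% of all genes and none of the 8 had an unadjusted p of 0.05 or less). Their median log2 difference was -0.05. Among same-numbered libraries Trim10 was lower in HFD+AOS in 3 of 3 pairs, and none of the other 7 had the same sign in all 3. How many of all genes had 3 of 3 pairs alike was not computed. The 95% interval was -0.89 to 0.33 for Trim10, the gene with the largest difference (-0.28), and -0.25 to 0.11 for Rnf11, the narrowest. Membrane and skeleton genes had a median of 0.01 and haem synthesis genes -0.00, with 0 of 16 and 0 of 12 called.

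Neither HFD+AOS against HFD+control-FMT nor the 3 treated diet groups together against AOS gave a call for any of the 8 (0% of all genes in both), and all 8 overlapped in both. Groups did not overlap for 15.3% and 1.02% of all genes, and an unadjusted p of 0.05 or less was reached by 11.4% and 4.93% of them and by none of the 8. The medians were 0.28 and 0.01. Among same-numbered libraries of HFD+AOS and HFD+control-FMT, Rnf11 was lower in HFD+AOS in 3 of 3 pairs, and the share of all genes that were so was not computed. Rnf11 had the narrowest intervals, -0.30 to 0.06 and -0.02 to 0.27.

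**Figure D3:**
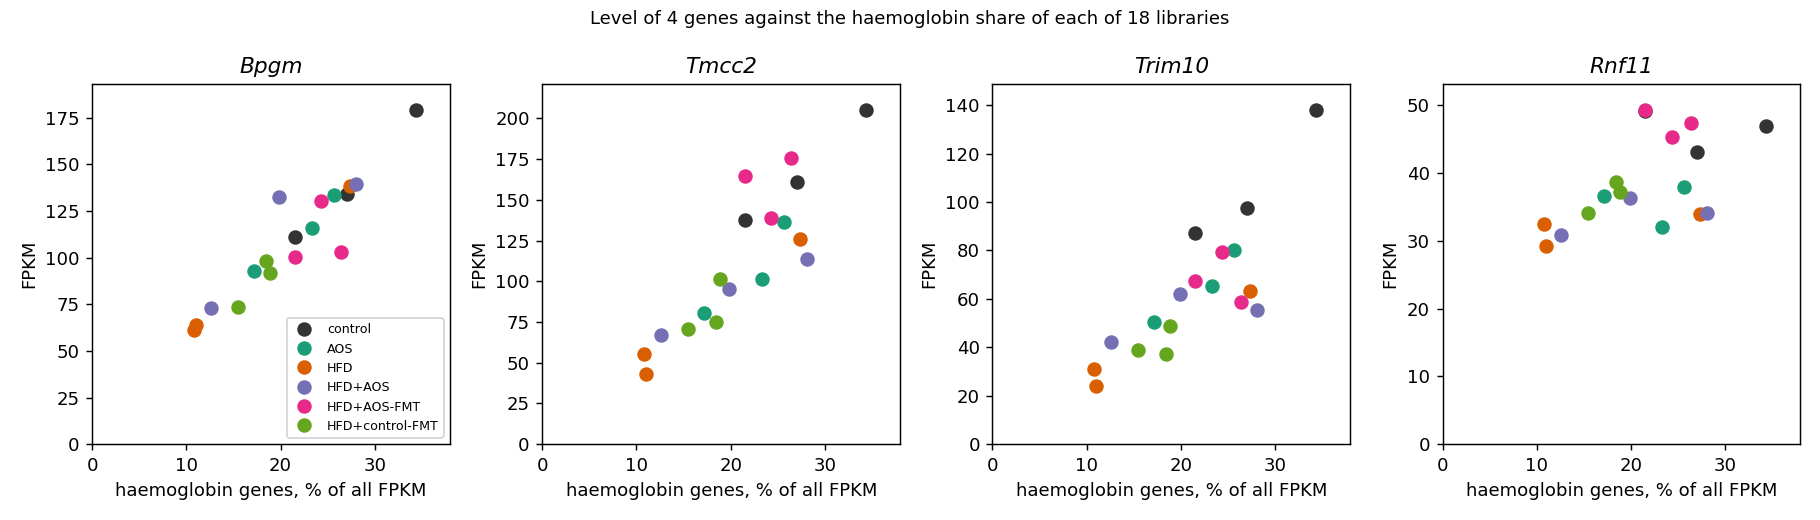
FPKM of Bpgm, Tmcc2, Trim10 and Rnf11 (vertical axes, from 0) against the share of haemoglobin genes in all FPKM (horizontal axes, %), 1 point for each of 18 libraries, coloured by group. Bpgm, Tmcc2 and Trim10 are lowest at the lowest shares, while the Rnf11 points of control and HFD+AOS-FMT stay at 43.1 FPKM or more over shares of 21.5% to 34.3%; 2 Rnf11 points at 21.5% nearly coincide.

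Since red cell RNA differed between libraries, each gene was also set against the median of the membrane and skeleton list in the same library. The share of all genes without overlap relative to a list was not computed, so all values relative to a list are a description. In HFD against control the median of the 8 on that scale was -0.02, and with the haem synthesis list as reference it was -0.32. Trim10 (-0.39) and Phospho1 (-0.42) were lower than control without overlap against the membrane and skeleton list, and again against the haem list (-0.69 and -0.72). Bpgm was higher without overlap against the first (0.37) and overlapped against the second (0.06), while Ypel4 overlapped against the first (-0.20) and was lower without overlap against the second (-0.50).

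Between HFD+AOS and HFD+AOS-FMT, Tmcc2 (-0.44) and Car2 (-0.35) were lower without overlap against the membrane and skeleton list, and also against the haem list (-0.60 and -0.51). Rnf11, the gene called in that comparison, overlapped on both scales (-0.11 and -0.27). Ypel4 was lower (-0.23) and Phospho1 higher (0.23) without overlap against the membrane and skeleton list, and both overlapped against the haem list, where Trim58 was lower without overlap (-0.16).

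Between the 2 FMT groups the sign of the median depended on the reference list. The median of the 8 was -0.09 relative to the membrane and skeleton list and 0.17 relative to the haem list. Rnf11 (-0.44) and Phospho1 (-0.43) were lower without overlap against the first, and Ypel4 (0.42), Tmcc2 (0.42) and Car2 (0.34) were higher without overlap against the second. On their own Rnf11 (0.36) and Phospho1 (0.37) were higher in HFD+AOS-FMT, by less than the first list.

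**Figure D4:**
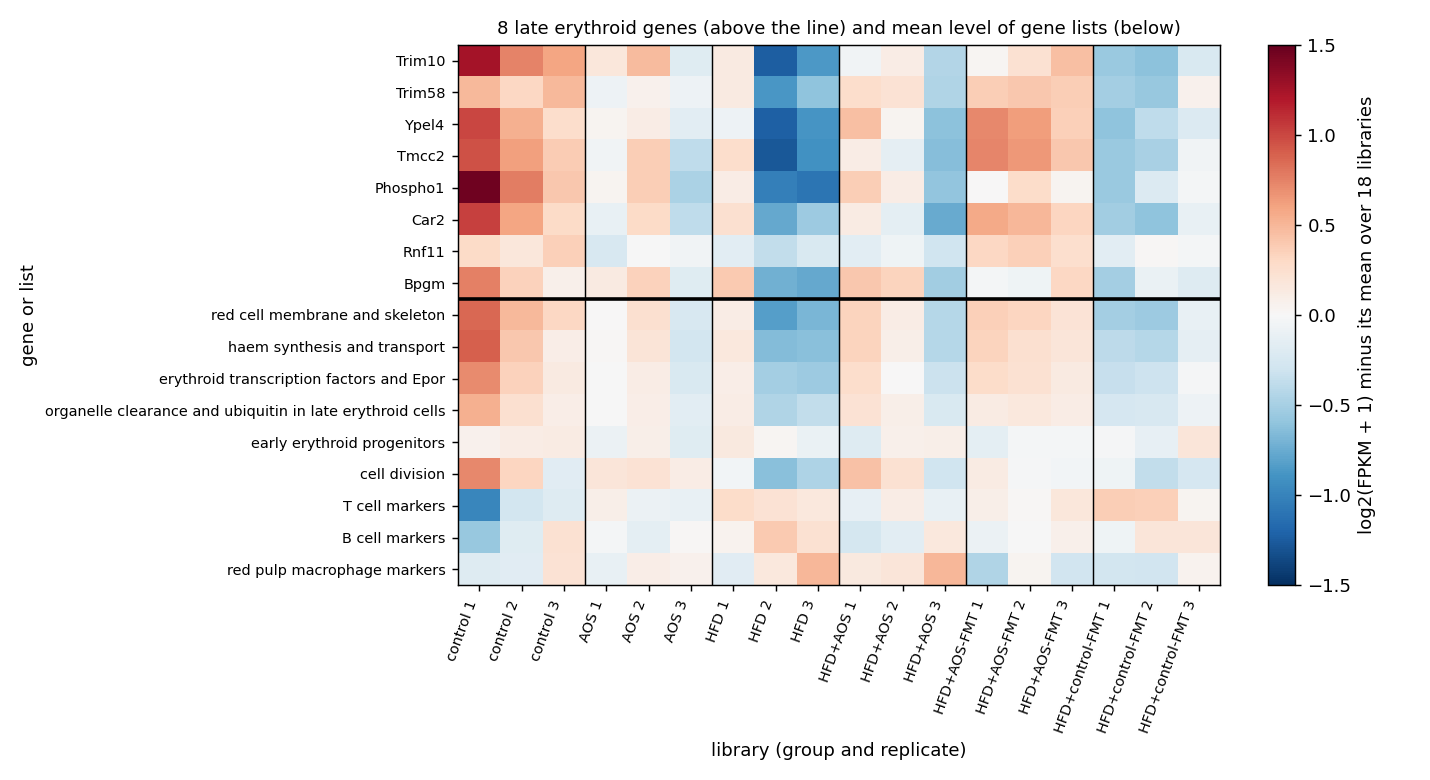
Centred log2(FPKM + 1) of the 8 genes and the mean of each marker list in the 18 libraries, with colour from lower to higher than the row mean. Trim10 ranges from -1.23 to 1.24 and Rnf11 from -0.37 to 0.36, while the early erythroid progenitor list ranges from -0.19 to 0.18.

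Profiles over the 18 libraries were compared by the mean absolute difference from the median profile of the 8, on the centred log2 scale. Among the 10 closest other genes were Ctse, Sox6, Specc1, Rhag, Sowaha, Ermap, Slc43a1 and Fhdc1, at 0.0689 to 0.0817 against a median of 0.454 for all other genes. Rhag and Ermap are in the membrane and skeleton list. Of the 8, Car2 (0.117), Tmcc2 (0.118), Ypel4 (0.123) and Trim58 (0.127) lay nearest their own median profile, followed by Trim10 (0.149), Phospho1 (0.154) and Bpgm (0.181). Rnf11 was the farthest at 0.278 and ranked 484 among all tested genes. The profile includes the libraries that chose the 8, so these distances are a description.

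Relatives with a group mean of at least 5 FPKM give a comparison by family. Car1, a second red cell carbonic anhydrase, had 266 ± 77.5 FPKM in HFD+AOS-FMT and 178 ± 51.4 FPKM in HFD+control-FMT (SD, n = 3), with overlap. Ypel3 and Ypel5, relatives of Ypel4, had log2 differences of 0.01 and 0.04 there. Pgam1, the glycolytic phosphoglycerate mutase related to Bpgm, had -0.28. Pgam2, its muscle form, was higher in HFD+AOS than in HFD+AOS-FMT (6.0 ± 1.24 against 1.31 ± 0.115 FPKM, SD, n = 3, limma adjusted p = 0.0441), but no gene at all was called there without HFD+AOS 2, HFD+AOS-FMT 1 or HFD+AOS-FMT 2.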

How the data were processed

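RNA from 18 spleen libraries was extracted with Trizol and a column kit, per the labels' protocols. Reads were aligned with Bowtie 0.12.2 to mm10, per the submitters' processing notes. The authors deposited 1 table of 19326 genes, taken to hold FPKM from how its values behave; the sources used here do not give the counting program or annotation. Depth is unknown, so no counting error is given. Columns were matched to groups by their codes.

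The fit used limma 3.58.1 in R 4.3.3 (trend and robust variance) on log2(FPKM + 1), for genes whose mean reached 1 FPKM in some group, with Benjamini-Hochberg adjustment within each comparison and a threshold of 0.05. The pseudocount of 1 understates changes of low genes. All 6 groups shared 1 estimate of spread with 12 residual degrees of freedom. Tested on simulated data for HFD+AOS-FMT against HFD+control-FMT (12969 genes, 200 changed by a log2 difference of 1, 5 draws), the fit recovered 88% of changed genes on average. It made 8.6 false calls on average. The simulated noise was drawn separately for each gene and library. Same-numbered measured libraries deviated together in some comparisons, so neither average can be carried over to the measured data. The share of 88% describes the changed genes together and is not the power for any named gene, which was not computed. In the measured data Ypel4 and Tmcc2 both differed by 0.96 in that comparison (SE 0.28 and 0.32). Neither was called (limma adjusted p = 0.362 for both).

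The members and lists were chosen with earlier results of these data known. Named genes were all 8 members, the 2 genes of each list with the smallest p in HFD+AOS against AOS, relatives with a group mean of at least 5 FPKM, and the 10 closest profiles, some of which are not reported here. Promoters came from RefSeq. Alternatives were pseudocounts of 0.1 and 5, no filter, a mean of at least 5, median-ratio and quantile scaling, fewer libraries in the fit, no trend or robust variance, a replicate block and leaving out each library.

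Same-numbered libraries deviated together in HFD+AOS against AOS (correlations 0.49, 0.39 and 0.32) and against HFD+control-FMT (0.61, 0.53 and 0.21). They also did in HFD+AOS against HFD (0.24, 0.27 and 0.19). The criterion was that every correlation was over 0.1. For these comparisons the signs within same-numbered pairs are given, as a description only. The labels state no pairing, and the part of red cell RNA in these correlations was not tested. The p-values and intervals in the results came from fits that used no pairs.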

Additional observations from a re-analysis of the deposited data

How the results depend on the processing

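The depth behind each value is unknown, and 3 libraries a group limit every interval; for Phospho1 and Trim58, the 2 genes of lowest level, the pseudocount moved the difference by over 1.5 times. None of the 8 genes was called in HFD+AOS-FMT against HFD+control-FMT under any alternative run, and all 8 kept a difference above 0 there. The adjusted p of limma varied widely between runs. It was 0.068 to 0.845 for Ypel4, Tmcc2 and Car2, 0.072 to 0.845 for Rnf11 and 0.283 to 0.941 for Phospho1. In HFD+AOS against HFD+AOS-FMT the count of the 8 called was 0 to 1 when single libraries were left out, 0 without any 1 library of the 2 groups, and 1 under every other alternative run.

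Counts over all genes moved more. For HFD+AOS against HFD+AOS-FMT (119 genes, 93 higher and 26 lower) no filter gave 58, a fit to the groups compared alone 195, the 12 libraries outside the choice 299, no trend or robust variance 70, and single libraries left out 0 to 216; median-ratio scaling gave 98 higher and 77 lower, and quantile normalization 85 and 46. For HFD+AOS-FMT against HFD+control-FMT (1 gene) the pseudocount of 5 gave 2, the groups compared alone 4 and single libraries left out 1 to 7. The groups compared alone gave 1 for HFD+AOS against AOS (0) and 1 for HFD+AOS against HFD+control-FMT (0), where the 12 libraries gave 4 and single libraries left out 0 to 1, as they did for the treated diet groups against AOS. The cause was not tested.

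The replicate block gave 346 genes for HFD+AOS against HFD+AOS-FMT and 2 for the 2 FMT groups, where same-numbered libraries did not all deviate together (lowest correlations 0.02 and -0.11), and it changed no call of the 8.

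Some differences changed sign. In HFD+AOS against AOS, Trim58 was -0.0093 after quantile normalization, and single libraries left out gave -0.088 to 0.27 for Trim58, -0.28 to 0.25 for Ypel4, -0.38 to 0.0089 for Tmcc2, -0.24 to 0.26 for Phospho1, -0.375 to 0.061 for Car2 and -0.19 to 0.27 for Bpgm. In HFD+AOS against HFD+AOS-FMT, Bpgm was 0.00078 with a pseudocount of 5 and 0.0087 after quantile normalization, and left-out libraries gave -0.17 to 0.29 for Bpgm and -0.34 to 0.13 for Phospho1. In HFD+AOS against HFD+control-FMT they gave -0.022 to 0.35 for Tmcc2 and -0.033 to 0.40 for Car2. In the treated diet groups against AOS, Car2 was -0.0039 with median ratios and -0.038 after quantile normalization, and left-out libraries gave -0.15 to 0.18 for Car2, -0.27 to 0.15 for Phospho1, -0.034 to 0.14 for Ypel4, -0.16 to 0.22 for Tmcc2 and -0.021 to 0.12 for Trim58. Among the comparisons without a test, left-out libraries gave -0.10 to 0.58 for Trim10, -0.10 to 0.40 for Trim58, -0.04 to 0.72 for Tmcc2, -0.26 to 0.25 for Car2 and -0.10 to 0.48 for Bpgm in HFD+control-FMT against HFD, and -0.10 to 0.40 for Car2 in HFD+AOS against HFD (-0.0041 after quantile normalization). In HFD+AOS-FMT against control they gave -0.20 to 0.17 for Ypel4, -0.19 to 0.09 for Tmcc2, -0.34 to 0.03 for Car2 and -0.02 to 0.07 for Rnf11 (-0.01 with median ratios).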
